A study of Mus musculus with 12 samples.

Results

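Resting macrophages carrying the COQ6 D316Y substitution were compared with resting wild-type (WT) macrophages, using 6 of the 12 RNA sequencing libraries of the study. All 3 unstimulated D316Y and all 3 unstimulated WT libraries entered the comparison. The cells were mouse bone marrow-derived macrophages, grown for 6 days from marrow freed of red blood cells, in medium holding 10% L929-conditioned medium, a source of the growth factor M-CSF. The D316Y group was homozygous for the substitution per the series title, and neither group received any stimulus. The other 6 libraries, 3 WT and 3 D316Y, came from cells given 100 ng/mL lipopolysaccharide (LPS) for 24 h, and they are used here for comparison with the resting libraries and in 1 alternative fit. Strain, age and sex of the mice are not given in the labels used here, nor is whether replicates came from separate animals, so the p-values cover only the variation among the libraries at hand, which may be technical.

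COQ6 is a flavin-dependent monooxygenase of the mitochondrial matrix that hydroxylates the benzoquinone ring during coenzyme Q synthesis. Coenzyme Q carries electrons from complex I, complex II and several other dehydrogenases to complex III, and it also acts as a lipid antioxidant. Macrophages are phagocytes whose resting state includes a low, tonic output of type I interferon signalling, and whose switch to activation involves a shift between mitochondrial respiration and glycolysis.

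Coq6 differed between genotypes by less than its libraries differed among themselves. In log2 CPM, the log2 of reads scaled to a common library size, replicates 1, 2 and 3 lay at 3.52, 3.49 and 3.45 for WT and at 3.71, 3.37 and 3.60 for D316Y. The groups overlapped, and Coq6 differed by 0.07 in log2, taken here and below as D316Y minus WT (SE 0.15, limma adjusted p 0.953, and 0.793 with the block on replicate number described below). A protein substitution need not alter the level of its transcript, so these values do not check the genotype labels. The gene (ENSMUSG00000021235) lies at chr12:84361657-84373796 of GRCm38 in the GENCODE annotation. Of the 28 genes tested within 1 Mb of it, 0 had libraries that did not overlap between genotypes, beside 8.13% of all genes. Their differences ran from -0.57 to 0.37 with a median of -0.02. The flanking genes Zfp410 and Entpd5 stood at 0.03 (SE 0.14) and -0.08 (SE 0.19).

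The 6 libraries were of macrophages by their transcripts, and replicate 1 stood apart in both genotypes. Each library held 32.8 to 46.9 M reads over the listed genes. All 28 macrophage identity genes were listed, with a summed level from 81864 to 101519 CPM in WT and from 74476 to 84016 in D316Y. Adgre1, which encodes the macrophage surface protein F4/80, lay between 10.14 and 11.53 log2 CPM, and Csf1r, the M-CSF receptor, between 10.47 and 11.77. Mitochondrially encoded genes took 0.449% of reads in WT replicate 1 and 0.949% in D316Y replicate 1, against 1.97% to 2.97% in the other 4 libraries. The first principal component held 65.5% of the variance, with WT replicate 1 at 55.8 and D316Y replicate 1 at 18.3 while the other 4 libraries lay between -33.1 and -2.29.

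The deviation of replicate 1 was shared across genotypes gene by gene. Measured as replicate 1 minus the mean of replicates 2 and 3, it had the same direction in WT and D316Y for 8568 of 11525 genes, with a correlation across genes of 0.660. In both genotypes replicate 1 was lower by at least 1 log2 unit for 421 genes and higher by as much for 8. Kcnq1ot1, a long nuclear antisense RNA of an imprinted locus, deviated by -2.60 in WT and -1.67 in D316Y. mt-Co2, a mitochondrially encoded cytochrome oxidase subunit, deviated by -2.16 and -1.51. Among the higher genes, C3, the central complement component, deviated by 1.16 and 1.09, and Ecm1, an extracellular matrix protein, by 1.15 and 1.02. Deviations of same-numbered libraries from their group means correlated in all 3 pairs (0.660, 0.636 and 0.203). The 0.660 is the correlation given above, and with 3 libraries per group the 3 values are not independent. The labels do not state a pairing. A fit with the replicate number as a block is given beside the main results. The numbers did not single out pair 3, since WT replicate 3 with D316Y replicate 2 gave 0.408 and WT replicate 2 with D316Y replicate 3 gave 0.326.

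**Figure D1:**
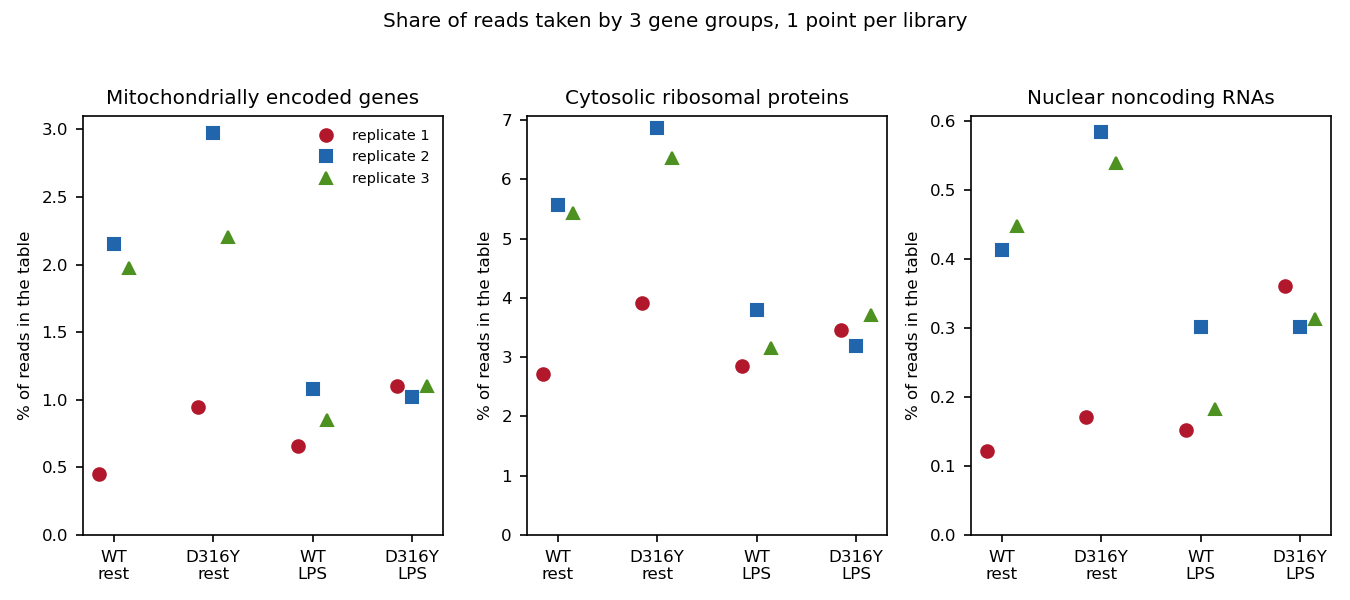
Share of reads (%) from mitochondrially encoded genes, cytosolic ribosomal protein genes and 10 long noncoding RNAs in each of the 12 libraries, by group, with replicates told apart by colour and shape. Replicate 1 is the lowest point of both resting groups in all 3 panels, and within each pair at rest the D316Y library lies above its WT partner.

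Few genes separated the genotypes beyond the spread between replicates. Of 11525 genes tested, limma called 1 at adjusted p under 0.05 (0.00868%), 0 higher and 1 lower in D316Y, with 337 at an unadjusted p under 0.05 (2.92%), 116 higher (1.01%) and 221 lower (1.92%). With the replicate block limma called 6 genes (0.0521%), 3 higher (0.026%) and 3 lower (0.026%), and 2119 genes (18.4%) had an unadjusted p under 0.05. The 3 D316Y and 3 WT libraries did not overlap for 937 genes (8.13%), 340 higher (2.95%) and 597 lower (5.18%). The median difference of all genes was -0.02, and 4951 genes (43%) had the same sign in all 3 pairs. The genes that passed, in the order described below, were Rab4a, Ide, Dhcr7, G530011O06Rik, Zbtb20 and Ubn2, and Ifi208 had the largest difference among the named genes that missed the threshold in both fits.

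**Figure D2:**
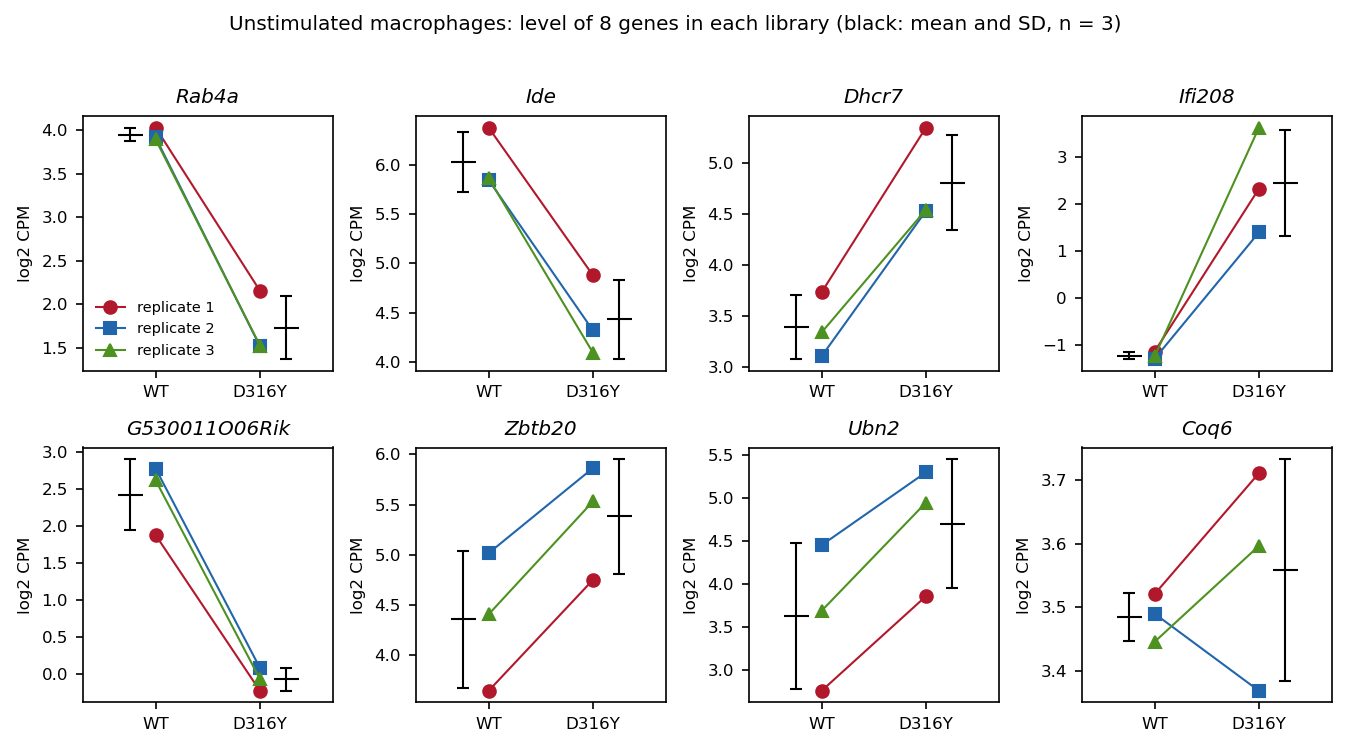
Level (log2 CPM) of 8 genes in the 3 WT and 3 D316Y resting libraries, each replicate pair joined by a line, with the mean and SD of each group (n = 3) in black. Axes differ between panels and do not start at 0. Rab4a, Ide and G530011O06Rik lie lower in every D316Y library than in any WT library, Dhcr7 and Ifi208 lie higher, Zbtb20 and Ubn2 overlap between groups but rise within every pair, and Coq6 overlaps.

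Rab4a, a small GTPase of early endosomes that returns endocytosed receptors to the cell surface by the fast recycling route, fell 4.65-fold in D316Y. Its level was 4.03, 3.92 and 3.90 log2 CPM in WT and 2.16, 1.52 and 1.53 in D316Y, so that the highest D316Y library lay well under the lowest WT library. The difference was -2.22 (SE 0.21, limma adjusted p 0.0497, and 0.00439 with the block). It was negative in every pair, at -1.88, -2.40 and -2.37. The call rested on single libraries without the block: the limma adjusted p ran from 0.00889 without D316Y replicate 1 to 0.514 without WT replicate 3, and it missed 0.05 without any WT replicate or without D316Y replicate 2 or 3. Rab4a (ENSMUSG00000019478) lies at chr8:123805985-123835287. Among 27 genes tested within 1 Mb the median difference was -0.12, and the lowest limma adjusted p with the block was 0.130. For 2 of the 27 the libraries did not overlap, beside 8.13% of all genes.

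The relatives and partners of Rab4a on endosomes did not pass. The list of endocytic Rabs and their effectors had 25 tested members, 20 lower and 5 higher, with a median of -0.14 against -0.02 for all genes, and of -0.02 without WT replicate 1. Rab4b, the closest relative of Rab4a, stood at 2.71, 2.50 and 2.26 log2 CPM in WT and 2.41, 2.13 and 2.66 in D316Y, which overlapped (difference -0.09, SE 0.21). Rab5a of early endosomes stood at -0.14, Rab11a of the slow recycling route at -0.18, and Rab7 of late endosomes at -0.11. Rufy1 and Rabep1, effectors that bind Rab4, stood at 0.20 (SE 0.16) and 0.32 (SE 0.24). Rab11fip5, a Rab11 effector in recycling, had levels of 5.27, 4.82 and 5.22 in WT and 4.72, 4.49 and 4.57 in D316Y. These did not overlap, and the difference was -0.51 (SE 0.17, limma adjusted p 0.124 with the block).

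Ide, a zinc metalloprotease of the M16 family that degrades insulin, amyloid beta and other small peptides, was 3.02-fold lower. Its level was 6.37, 5.84 and 5.86 log2 CPM in WT and 4.88, 4.32 and 4.10 in D316Y, with every D316Y library under every WT library. The difference was -1.60 (SE 0.24), close in size in the 3 pairs at -1.50, -1.52 and -1.77. Ide passed with the block (limma adjusted p 0.00304) and missed the threshold without it (0.390). The gene (ENSMUSG00000056999) lies at chr19:37268743-37337852. Of the 12 genes tested within 1 Mb, 0 had libraries that did not overlap, beside 8.13% of all genes. Their differences ran from -0.52 to 0.11, with the flanking gene March5 at -0.48 (SE 0.22). Of the 5 tested M16 genes the other 4 stood near 0: Nrd1, the dibasic convertase nardilysin, at -0.07, Pitrm1, which clears presequence peptides in mitochondria, at -0.06, and Pmpca and Pmpcb, the subunits of the mitochondrial processing peptidase, at -0.13 and 0.04.

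Dhcr7, the reductase that converts 7-dehydrocholesterol to cholesterol, was 2.67-fold higher. Its level was 3.74, 3.11 and 3.34 log2 CPM in WT and 5.35, 4.53 and 4.55 in D316Y, without overlap. The difference was 1.42 (SE 0.26), with 1.62, 1.43 and 1.20 in the pairs. Dhcr7 passed with the block (limma adjusted p 0.00953) and missed without it (0.942). It lies at chr7:143823145-143848410 (ENSMUSG00000058454). Of 14 genes tested within 1 Mb 0 passed in limma, and for 1 the libraries did not overlap, beside 8.13% of all genes. The lowest blocked limma adjusted p was 0.0979 for Kcnq1ot1, the nuclear RNA that is among those lowest in replicate 1.

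Dhcr7 was the only tested gene of cholesterol synthesis that passed with the block, and 0 passed without it. Of 10 tested genes from lanosterol to cholesterol 2 were higher and 8 lower (median -0.08), and of 12 genes from acetyl-CoA to lanosterol 2 were higher and 10 lower (median -0.10). Sc5d, the desaturase acting just before Dhcr7, stood at 0.07 (SE 0.23), and Cyp51, the lanosterol demethylase, at -0.09 (SE 0.26). Both lists differed between pairs, with medians of 0.40, -0.11 and -0.35 for the late steps and 0.22, -0.21 and -0.35 for the early steps. Srebf2, the transcription factor that drives these genes, stood at -0.20 (SE 0.17).

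Ifi208, a gene of the Ifi200 family of interferon-inducible proteins with PYRIN and HIN domains, some of which sense DNA, was 12.6-fold higher in D316Y without passing. It drew 25, 19 and 17 reads from the WT libraries and 260, 145 and 597 from the D316Y ones, which is -1.13, -1.28 and -1.23 log2 CPM against 2.32, 1.39 and 3.61. No D316Y library approached the WT range, but the D316Y libraries varied widely among themselves (SD 1.11). The difference was 3.66 (SE 0.51, limma adjusted p 0.314, and 0.0525 with the block). It was positive in each pair, at 3.45, 2.68 and 4.85. Over 22 alternative fits the difference of Ifi208 ran from 3.06 to 4.18, and it passed in 6 of them.

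The rest of the Ifi200 family lay on the other side at rest in pairs 1 and 2, but not in pair 3 or after LPS. The 12 tested members, all in one cluster on chromosome 1, comprised Ifi208 and 11 with negative differences, for a median of -0.44. In pair 3, 10 of the 12 were higher in D316Y, and after LPS all 12 were, with a median of 0.18. Ifi206 had levels of 5.38, 4.28 and 4.18 in WT and 3.48, 3.11 and 4.36 in D316Y, which overlapped through D316Y replicate 3 (-0.96, SE 0.39). Ifi213 ran 4.57, 4.24 and 4.10 against 3.31, 2.97 and 4.40, again overlapping through that library (-0.75, SE 0.34). Ifi211 stood at -0.56, Ifi209 at -0.63, Ifi204 at -0.52, and Aim2, the DNA sensor of the inflammasome, at -0.04. Family medians were -0.87, -0.66 and 0.20 in pairs 1, 2 and 3, and the overall median was -0.28 without WT replicate 1. The genes are related copies, and how the counting treated reads that match several of them is not given in the sources used here.

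**Figure D3:**
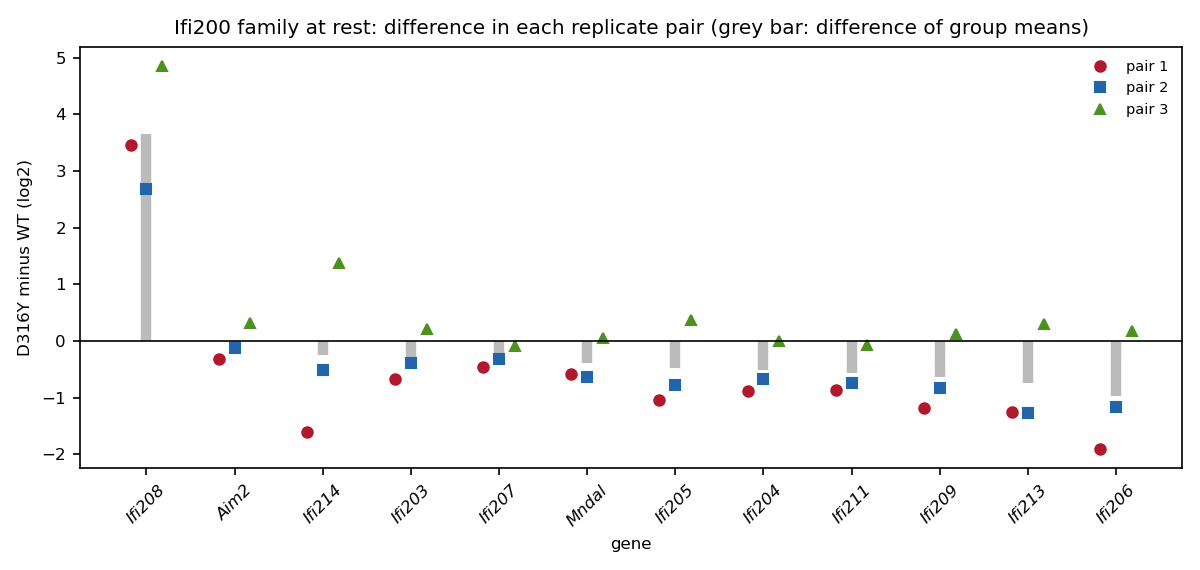
D316Y minus WT difference (log2) of the 12 Ifi200 family genes at rest in each replicate pair, with the difference of group means as a grey bar. Ifi208 is above 2.6 in all 3 pairs, while most other members lie under 0 in pairs 1 and 2 and near or above 0 in pair 3.

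A stretch of near-identical upstream sequence is shown here for Ifi208, Ifi213 and Ifi206. It covers only the 70 bases around a match to GAAA, any 2 bases and GAAA. This is the core of the interferon-stimulated response element (ISRE) bound by ISGF3 and IRF factors. The windows come from RefSeq on GRCm38.p6 and cover up to 250 bases upstream of each gene's start. Capitals mark the match.
Ifi208: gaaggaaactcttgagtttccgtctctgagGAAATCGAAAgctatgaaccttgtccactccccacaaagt
Ifi213: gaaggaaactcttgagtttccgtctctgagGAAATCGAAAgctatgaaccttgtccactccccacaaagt
Ifi206: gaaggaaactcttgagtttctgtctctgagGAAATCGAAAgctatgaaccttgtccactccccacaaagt
The Ifi208 stretch lies at chr1:173673577-173673646 on the plus strand, that of Ifi213 at chr1:173599306-173599375 and that of Ifi206 at chr1:173491319-173491388, both on the minus strand. All 70 bases were identical between Ifi208 and Ifi213, and 69 of 70 between Ifi208 and Ifi206. The core was found on either strand in 9 of 11 Ifi200 genes with a window, against 3.59% of the 8486 tested genes with a window.

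Interferon-stimulated genes as a whole were lower in resting D316Y cells in pairs 1 and 2 and level in pair 3. All 46 tested members had negative differences, against 53.8% of all genes, with a median of -0.55. In limma 0 passed and 8 had an unadjusted p under 0.05, beside 2.92% of all genes, and with the block 33 had an unadjusted p under 0.05 in the lower direction, beside 8.94% of all genes. The list median was -0.92 in pair 1, -0.71 in pair 2 and 0.01 in pair 3. Without WT replicate 1 the median difference of group means was -0.34, and without D316Y replicate 1 it was -0.59. In the blocked fit without pair 3, which leaves 2 pairs, 42 of 46 passed as lower and 0 as higher, beside 6.36% of all genes lower and 4.12% higher. Without pair 1 the count was 1 lower, beside 0.343% of all genes lower and 1.15% higher, and without pair 2 it was 0 lower and 0 higher, beside 0.0262% and 0.0436% of all genes. The same genes lay higher in replicate 1 of WT, with a median deviation of 0.73, against 0.06 in D316Y.

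Named members showed the pattern library by library. Cmpk2, a mitochondrial nucleotide kinase induced by interferon, had levels of 7.20, 6.38 and 6.18 in WT and 5.42, 5.05 and 6.22 in D316Y (-1.02, SE 0.35). Its D316Y replicate 3 reached the WT range while replicates 1 and 2 lay under it. Ifit2, which binds viral RNA, ran 9.22, 8.14 and 7.98 against 7.69, 6.88 and 7.94 (-0.95, SE 0.38), and D316Y replicate 3 lay just under the lowest WT library. Oas1g, an oligoadenylate synthetase, ran 6.76, 6.05 and 6.26 against 5.77, 5.35 and 6.03, without overlap (-0.64, SE 0.24). Phf11d, an interferon-induced zinc finger gene, ran 6.43, 6.20 and 6.20 against 5.43, 5.28 and 6.04, also without overlap (-0.70, SE 0.22). Rsad2, the antiviral enzyme viperin, stood at -0.83, and Irf7, the transcription factor that amplifies type I interferon, at -0.67, both overlapping.

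The transducers and sensors of the pathway had smaller differences. All 19 tested interferon receptor, STAT and SOCS genes were lower (median -0.24), with Stat2, a subunit of ISGF3, at -0.59 (SE 0.23). Of 20 nucleic acid sensors and their partners 18 were lower (median -0.23), among them Zbp1, a sensor of Z-form nucleic acid, at -0.80, and Tlr9, the endosomal DNA receptor, at -0.65. No member of either list passed in limma, and each had 1 member at an unadjusted p under 0.05, near the 2.92% of all genes. With the block 8 and 9 members had an unadjusted p under 0.05 as lower, beside 8.94% of all genes. Without WT replicate 1 the median of the receptor, STAT and SOCS genes was -0.16 and that of the sensors -0.12. Without D316Y replicate 1 they were -0.32 and -0.37.

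GTPases of cell-autonomous defence followed the interferon-stimulated genes. All 13 tested guanylate-binding proteins (GBP) and immunity-related GTPases (IRG) were lower, with a median of -0.63 and pair medians of -1.05, -0.78 and 0.01. Without WT replicate 1 the median was -0.35, and without D316Y replicate 1 it was -0.73. In limma 0 passed and 4 had an unadjusted p under 0.05, beside 2.92% of all genes, and with the block 10 did as lower, beside 8.94%. For 6 of them (46.2%) the libraries did not overlap, beside 5.18% of all genes. Gbp2 had levels of 7.33, 6.34 and 6.19 in WT and 6.16, 5.31 and 6.08 in D316Y (-0.77, SE 0.34), where D316Y replicate 1 lay just under WT replicate 3. Gvin1, a giant interferon-inducible GTPase, was lower in every pair, from 2.39, 2.28 and 2.15 to 1.90, 1.50 and 1.66 (-0.59, SE 0.20). Gbp9 stood at -0.54 and Irgm1, a regulator of IRG proteins on membranes, at -0.63.

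Upstream windows of these genes hold ISRE cores, which the following stretches show for members with a match close to the start (RefSeq, GRCm38.p6, capitals mark the core on either strand, so that its reverse complement has TTTC in place of GAAA, and overlapping matches are joined).
Oas1g: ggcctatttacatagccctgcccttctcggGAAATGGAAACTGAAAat
Ifit1: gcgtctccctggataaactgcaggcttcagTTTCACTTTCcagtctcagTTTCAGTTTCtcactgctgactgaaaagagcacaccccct
Gbp2: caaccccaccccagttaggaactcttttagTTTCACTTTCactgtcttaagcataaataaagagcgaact
Gbp3: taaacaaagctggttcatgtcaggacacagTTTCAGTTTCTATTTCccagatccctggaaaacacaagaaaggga
Irgm1: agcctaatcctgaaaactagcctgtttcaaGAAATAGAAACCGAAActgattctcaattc
They lie at chr5:120887614-120887661 (minus strand), chr19:34640755-34640843 (plus), chr3:142620574-142620643 (plus), chr3:142559969-142560043 (plus) and chr11:48871421-48871480 (minus). A core was present in 8 of 8 GBP and IRG genes with a window and in 14 of 35 interferon-stimulated genes, against 3.59% of tested genes and 2.98% of all 32851 windows. The median difference was -0.65 over the 14 with a core and -0.50 over the 21 without. A match describes the sequence only.

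Antigen presentation genes of class I had negative differences, and those of class II had a median near 0. All 23 tested MHC class I genes, which include the peptide transporter and immunoproteasome, were lower (median -0.40, pair medians -0.65, -0.43 and -0.13), and their median was -0.21 without WT replicate 1. Of 10 class II genes 8 were higher with a median of 0.03. The difference between the classes was not tested. Tap1, a subunit of the peptide transporter, ran 7.10, 6.25 and 6.12 in WT and 5.96, 5.32 and 6.08 in D316Y, with D316Y replicate 3 barely under the lowest WT library (-0.70, SE 0.30). H2-Q6, a nonclassical class I molecule, stood at -0.78 (SE 0.34). The class II list had pair medians of 0.49, 0.09 and -0.35, so that it lay further down than class I in pair 3, with H2-Aa at 0.19 and Ciita, its master regulator, at 0.25. In limma 0 members of either list passed, and 1 class I gene and 0 class II genes had an unadjusted p under 0.05, beside 2.92% of all genes. With the block 16 class I genes and 0 class II genes had an unadjusted p under 0.05 as lower, beside 8.94%.

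Other inflammatory lists had medians from -0.26 to -0.07 at rest. Cytokine genes were lower in 10 of 13 (median -0.17), chemokine genes in 11 of 15 (median -0.26), NF-kB genes in 13 of 20 (median -0.14), and Toll-like receptor pathway genes in 14 of 21 (median -0.07). Il10, the anti-inflammatory cytokine, had levels of 2.72, 2.79 and 2.91 in WT and 1.92, 2.32 and 2.64 in D316Y, which did not overlap (-0.51, SE 0.21). Cxcl10, an interferon-induced chemokine, ran 6.57, 5.94 and 6.08 against 5.03, 4.96 and 6.24 and overlapped through D316Y replicate 3 (-0.79, SE 0.35). Mefv, which encodes the inflammasome sensor pyrin, was on the higher side at 2.01, 1.80 and 1.56 against 2.46, 2.24 and 2.15 (0.49, SE 0.20), within an inflammasome list of 6 higher and 9 lower. Over these 5 lists limma called 0 members. An unadjusted p under 0.05 was found for 1 of 13 cytokine and 1 of 15 inflammasome genes, beside 2.92% of all genes. With the block it was found, as lower, for 5 of 21 Toll-like receptor pathway, 2 of 13 cytokine, 2 of 15 chemokine and 2 of 20 NF-kB genes, beside 8.94%. As higher it was found for 2 of 15 inflammasome and 1 of 20 NF-kB genes, beside 9.45%.

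G530011O06Rik, a processed transcript gene with no assigned function, was 5.66-fold lower. Its level was 1.88, 2.78 and 2.62 log2 CPM in WT and -0.23, 0.08 and -0.07 in D316Y, from 205, 326 and 253 reads against 44, 58 and 46. The groups lay far apart in every pair, at -2.11, -2.70 and -2.69. The difference was -2.50 (SE 0.29, limma adjusted p 0.125, and 0.0114 with the block). GENCODE places it at chrX:169975043-169978917 (ENSMUSG00000072844), while RefSeq has an upstream window for it on both X and Y. These upstream windows were identical at 243 of 246 aligned bases (98.8%). Transcribed sequences of the X and Y loci were not compared, so the value may hold reads of both. Of 5 tested genes within 1 Mb the libraries did not overlap for 2, beside 8.13% of all genes. Among the 5 was Mid1, a ubiquitin ligase gene at the edge of the pseudoautosomal region. Mid1 ran -0.50, 0.42 and 0.14 in WT and -3.54, -0.56 and -0.54 in D316Y (-1.57, SE 0.80). This rested on 4 reads in D316Y replicate 1.

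Zbtb20 and Ubn2 were about as much higher in each pair but overlapped between groups. Zbtb20, a zinc finger repressor, had levels of 3.64, 5.01 and 4.41 in WT and 4.75, 5.86 and 5.53 in D316Y, a difference of 1.03 (SE 0.38, limma adjusted p 0.942, and 0.0221 with the block). Ubn2, a subunit of the HIRA histone chaperone complex, had 2.76, 4.45 and 3.69 against 3.86, 5.30 and 4.95, a difference of 1.07 (SE 0.47, adjusted p 0.942 in limma, and 0.0371 with the block). Replicate 1 of WT and D316Y deviated by -1.07 and -0.95 for Zbtb20 and by -1.31 and -1.26 for Ubn2, about as much as the genotypes differed. Without WT replicate 1 the differences of Zbtb20 and Ubn2 were 0.67 and 0.63, and over 22 alternatives they reached up to 1.36 and 1.49. With the block the calls of Zbtb20 and Ubn2 were lost without pair 2 (limma adjusted p 0.0638 and 0.0651), and that of Ubn2 also with voom (0.0661). They lie at chr16:42875881-43642602 and chr6:38433950-38524825. Of the 7 and 16 genes tested within 1 Mb of them, 0 and 1 did not overlap between groups, beside 8.13% of all genes.

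Very long genes and nuclear noncoding RNAs stood higher in D316Y, as groups that also set replicate 1 apart. Of 24 tested genes with very long transcripts 22 were higher, with a median of 0.38 and pair medians of 0.54, 0.27 and 0.36, and 15 had an unadjusted p under 0.05 with the block in that direction, beside 9.45% of all genes. Without WT replicate 1 the median was 0.22, and without D316Y replicate 1 it was 0.52. Herc1, a giant ubiquitin ligase, had levels of 3.73, 4.78 and 4.34 in WT and 4.60, 5.41 and 5.08 in D316Y (0.75, SE 0.29, limma adjusted p 0.0653 with the block). Macf1, a giant cytoskeletal linker, ran 3.95, 4.96 and 4.45 against 4.89, 5.47 and 5.11 (0.70, SE 0.26). Nbeal2, a BEACH domain protein of granule biogenesis, was on the lower side without overlap, at 3.53, 3.15 and 3.37 against 2.97, 2.74 and 2.88 (-0.49, SE 0.17).

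All 10 tested long noncoding RNAs, most of them held in the nucleus, were higher, with a median of 0.74 and pair medians of 1.07, 0.52 and 0.39. Their summed share of reads was 0.122%, 0.413% and 0.448% in WT and 0.171%, 0.584% and 0.540% in D316Y. Malat1, the abundant RNA of nuclear speckles, ran 9.83, 11.51 and 11.66 log2 CPM in WT and 10.22, 11.96 and 11.88 in D316Y (0.35, SE 0.60). Kcnq1ot1 ran 1.47, 4.69 and 3.46 against 3.69, 5.63 and 5.10 (1.60, SE 0.78, limma adjusted p 0.0979 with the block). The median deviation of replicate 1 was -1.87 in WT and -1.17 in D316Y, more than the list differed between genotypes. Without WT replicate 1 the median difference was 0.16, and without D316Y replicate 1 it was 1.08.

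The same direction was seen across annotated gene types. Of 122 lincRNA genes 102 were higher (median 0.36), as were 87 of 97 processed transcripts (0.39), 75 of 102 antisense genes (0.31) and 550 of 752 processed pseudogenes (0.20), against 46.2% of all genes. Protein-coding genes were higher in 4396 of 10290 with a median of -0.04. Replicate 1 was lower in both genotypes for each of the 4 other types, with medians between -1.13 and -0.48. How library quality and genotype share these differences was not tested. Without strand information, reads of antisense genes and of their partners cannot be told apart, and reads of a processed pseudogene can come from its parent gene.

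Genes of the coenzyme Q pathway around COQ6 shared no direction. Of 14 tested synthesis genes 7 were higher and 7 lower with a median of 0.00, and 0 passed in limma or had an unadjusted p under 0.05. The lowest was Coq8b, an atypical kinase-like ATPase of the pathway, with 3.83, 3.78 and 3.51 in WT and 3.05, 3.32 and 3.53 in D316Y, which overlapped (-0.40, SE 0.18). Coq2, the prenyltransferase that joins ring and tail, stood at -0.35 (SE 0.25), and Coq7, the later hydroxylase, at -0.04 (SE 0.15). The methyltransferases Coq3 and Coq5 stood at 0.04 and -0.09, and the scaffold proteins Coq4 and Coq9 at -0.12 and 0.03. The 12 tested dehydrogenases that reduce coenzyme Q had a median of -0.02, with Sdha of complex II at -0.18 and Aifm2, which reduces coenzyme Q at the plasma membrane, at 0.09.

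Respiratory chain transcripts of both genomes had positive medians in all 3 pairs, and these changed with the replicate 1 library left out. All 13 mitochondrially encoded protein genes were higher, with a median of 0.60 and pair medians of 1.22, 0.48 and 0.11. mt-Nd3, a complex I subunit, ran 4.12, 6.15 and 5.96 in WT and 5.60, 6.65 and 6.49 in D316Y (0.84, SE 0.52). The median deviation of replicate 1 was -2.18 in WT and -1.32 in D316Y. Without WT replicate 1 their median difference was -0.15, and without D316Y replicate 1 it was 1.05. Each of these settings keeps the low replicate 1 of the other genotype. Of 22 alternatives 21 kept the positive sign. Nuclear subunits of complex I were higher in 30 of 47 (median 0.10) and those of complexes III to V in 27 of 37 (median 0.12), with medians of -0.03 and -0.05 without WT replicate 1. Cox7b, a small subunit of cytochrome oxidase, ran 6.23, 8.12 and 7.96 against 7.46, 8.48 and 8.50 (0.71, SE 0.51), again with replicate 1 lowest in both genotypes. In limma 0 of these genes passed or had an unadjusted p under 0.05. With the block 0 passed, while 12 of 13 mitochondrially encoded, 8 of 47 complex I and 12 of 37 complex III to V genes had an unadjusted p under 0.05 as higher, beside 9.45% of all genes.

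Cytosolic ribosomal protein genes resembled the mitochondrial transcripts. Of 54 tested 52 were higher, with a median of 0.25 and pair medians of 0.44, 0.21 and 0.15, and 32 had an unadjusted p under 0.05 with the block as higher, beside 9.45% of all genes. Rps12 ran 7.60, 9.51 and 9.54 in WT and 8.97, 10.04 and 9.97 in D316Y (0.77, SE 0.54). Ribosomal protein genes made up 2.73%, 5.57% and 5.43% of reads in WT and 3.91%, 6.86% and 6.36% in D316Y. Without WT replicate 1 their median was -0.00, and without D316Y replicate 1 it was 0.48. Mitochondrial ribosomal proteins, which are nuclear encoded, had a median of -0.01 over 38 genes.

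Central carbon metabolism genes had medians slightly under 0. In the tricarboxylic acid cycle 20 of 21 genes lay lower (median -0.10), with pair medians of -0.05, -0.11 and -0.20, and glycolysis and hypoxia genes in 25 of 31 (median -0.11), with pair medians of 0.08, -0.14 and -0.29. Both lists moved with the libraries used. Without D316Y replicate 1 their medians were -0.26 and -0.34, and without WT replicate 1 they were 0.00 and -0.02. With the mitochondrial share as a covariate they were 0.01 and 0.02. Slc16a3, the lactate exporter MCT4, had levels of 5.26, 4.95 and 5.07 in WT and 4.75, 4.17 and 4.49 in D316Y, without overlap (-0.63, SE 0.18, limma adjusted p 0.0979 with the block). Idh2, the mitochondrial isocitrate dehydrogenase, ran 6.31, 5.82 and 5.91 against 5.79, 5.51 and 5.71 (-0.34, SE 0.18). Fatty acid oxidation genes had a median of -0.04 over 22 genes, and antioxidant enzymes one of -0.00 over 19.

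The integrated stress response, in which the transcription factor ATF4 induces amino acid and redox genes, had a negative median of similar size in all 3 pairs. Of 22 tested genes 19 were lower, with a median of -0.32 and pair medians of -0.30, -0.39 and -0.32. Single members varied more, with 7, 2 and 5 of 22 higher in pairs 1, 2 and 3. In all 3 pairs 11 were lower and 1 higher, beside 22.2% and 20.7% of all genes. In limma 0 passed and 4 had an unadjusted p under 0.05, beside 2.92% of all genes, and with the block 9 did as lower, beside 8.94%. Chac1, which degrades glutathione, had levels of 2.13, 1.60 and 2.20 in WT and 1.15, 1.06 and 0.83 in D316Y, without overlap (-0.97, SE 0.24, limma adjusted p 0.942, and 0.135 with the block). Trib3, a pseudokinase that restrains the response, ran 2.91, 2.39 and 2.59 against 2.48, 1.53 and 1.75 (-0.71, SE 0.28), overlapping through replicate 1. Asns, asparagine synthetase, ran 5.41, 5.26 and 5.30 against 5.59, 4.29 and 4.60, with D316Y replicate 1 above every WT library (-0.50, SE 0.30).

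Members of this group did not all share the direction. Slc7a11, the cystine importer, was higher without overlap at 1.33, 0.93 and 0.27 in WT and 2.14, 1.36 and 1.50 in D316Y (0.83, SE 0.34). Atf4 itself stood at -0.16 (SE 0.15) and Ddit3, its partner CHOP, at -0.07 (SE 0.15). Cytosolic and mitochondrial tRNA synthetases were lower in 19 of 21 (median -0.17), with Vars at 4.03, 3.82 and 3.62 against 3.38, 2.93 and 3.46, without overlap (-0.57, SE 0.19). Endoplasmic reticulum stress genes were lower in 20 of 21 (median -0.14). With the mitochondrial share of reads as a covariate the medians were -0.20 for the integrated stress response, 0.03 for tRNA synthetases and -0.01 for endoplasmic reticulum stress genes. Without WT replicate 1 they were -0.23, 0.02 and -0.01, and without D316Y replicate 1 -0.38, -0.38 and -0.37.

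A match to TGATGNAA, the core of the element bound by ATF4 with C/EBP proteins, is shown in capitals for Chac1 and Asns (RefSeq, GRCm38.p6, with the reverse complement in Chac1).
Chac1: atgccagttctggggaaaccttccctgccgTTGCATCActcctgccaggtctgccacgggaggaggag
Asns: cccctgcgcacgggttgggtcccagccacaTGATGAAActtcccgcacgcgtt
They lie at chr2:119351019-119351086 on the plus strand and chr6:7693210-7693262 on the minus strand. The core was found on either strand in 5 of 20 genes of the integrated stress response with a window and in 3 of 13 tRNA synthetases, against 2.40% of tested genes.

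Lysosomal and macrophage identity genes had negative medians. Lysosome genes were lower in 31 of 34, with a median of -0.21 and pair medians of -0.17, -0.18 and -0.24. Tfeb, the transcription factor that drives lysosome genes, had levels of 5.35, 5.18 and 5.32 in WT and 4.85, 4.85 and 5.05 in D316Y, without overlap (-0.37, SE 0.14). Macrophage identity genes were lower in 21 of 27 (median -0.21), with a range from -1.26 to 0.13. Siglec1, the sialic acid receptor of tissue macrophages, ran 5.92, 5.19 and 5.27 against 5.24, 4.47 and 4.78 (-0.63, SE 0.26, limma adjusted p 0.094 with the block). Fcgr4, an activating receptor for IgG, ran 7.03, 6.44 and 6.48 against 6.17, 5.77 and 6.36, without overlap (-0.55, SE 0.23). In limma 0 genes of either list passed, and 1 of 34 lysosome and 1 of 27 macrophage identity genes had an unadjusted p under 0.05, beside 2.92% of all genes. With the block 16 and 10 did as lower, beside 8.94%. In bulk libraries fewer cells of a type and less RNA per cell cannot be told apart. Without WT replicate 1 the medians were -0.03 for lysosome and -0.07 for macrophage identity genes. Without D316Y replicate 1 they were -0.38 and -0.42.

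**Figure D4:**
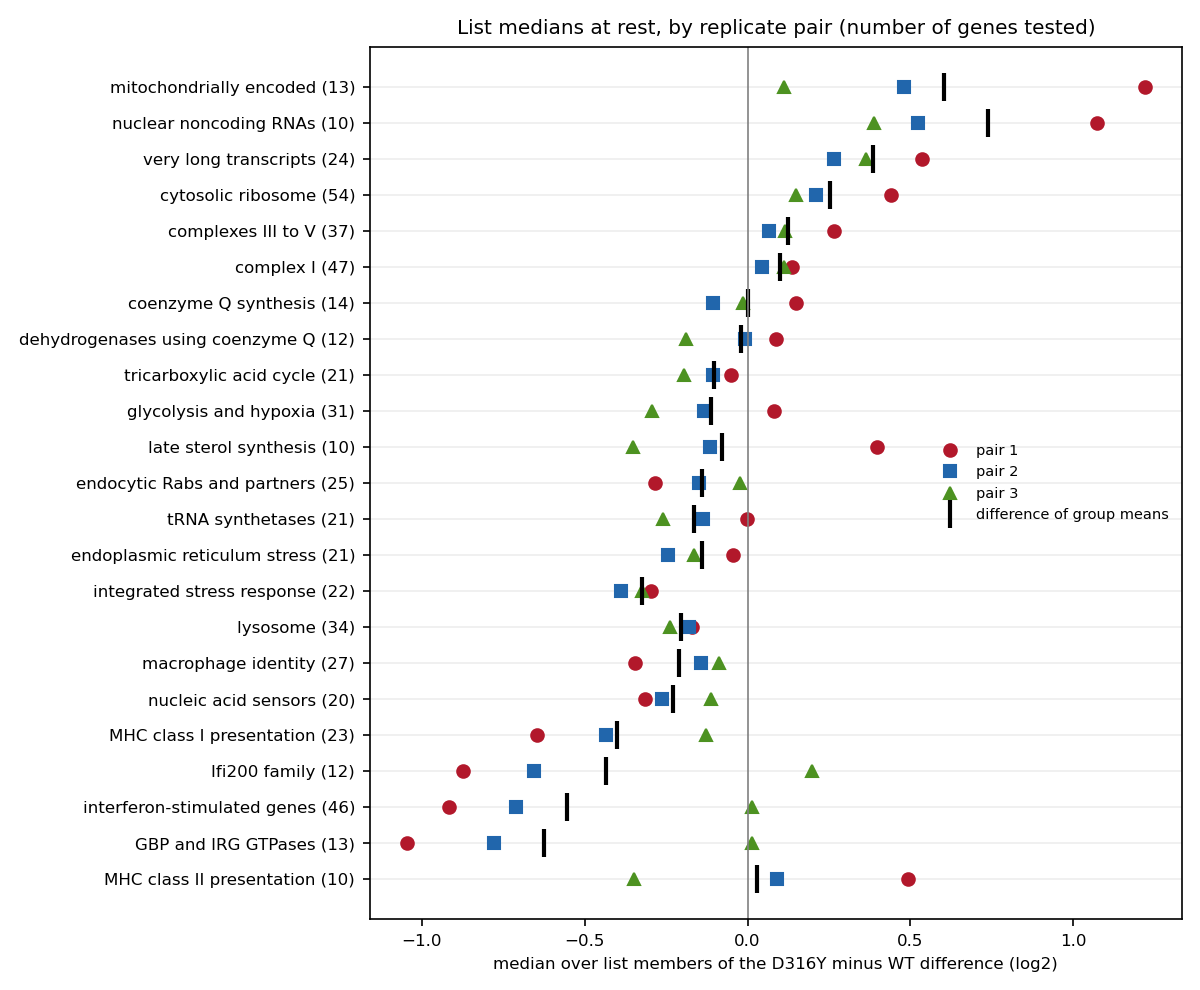
Median D316Y minus WT difference (log2) of 23 gene lists at rest, for the group means (black bars) and within replicate pairs 1, 2 and 3, with the number of tested genes in brackets. The interferon-stimulated, GBP and IRG, and Ifi200 lists lie under 0 in pairs 1 and 2 only, the integrated stress response and lysosome lists keep nearly the same value in all pairs, and the mitochondrially encoded list shrinks from 1.22 in pair 1 to 0.11 in pair 3.

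Proliferation genes took opposite signs in different pairs. DNA replication genes had a median of -0.04 over 26 genes and mitosis genes one of -0.04 over 24, with pair medians of 0.36, -0.09 and -0.34 for mitosis. Mki67, the proliferation marker, stood at 0.27 (SE 0.18).

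Single genes with small p-values from outside the lists described above did not pass in either fit. Zfp704, a zinc finger gene, was higher at 2.56, 2.90 and 2.66 in WT and 3.40, 3.71 and 3.61 in D316Y (0.86, SE 0.17, limma adjusted p 0.0913 with the block). Dppa3, a factor of germ cells and early embryos that binds chromatin, ran 0.53, 0.93 and 0.89 against 2.35, 1.86 and 1.65 (1.17, SE 0.26). Psd3, an exchange factor for ARF6, ran 1.36, 1.77 and 1.80 against 2.63, 2.83 and 2.32 (0.95, SE 0.22). In all 3 genes every D316Y library lay above every WT library, but the rule that named them required this. It held for 2.95% of all genes. Xylt1, which starts glycosaminoglycan chains, stood at 1.27 (SE 0.38), Atm, the DNA damage kinase, at 0.69 (SE 0.21), and Ano6, a phospholipid scramblase, at 0.58 (SE 0.19).

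On the lower side, P2ry2, a receptor for extracellular ATP and UTP, was the steadiest, at 3.67, 3.58 and 3.73 in WT and 3.06, 3.00 and 3.14 in D316Y. Its difference was -0.61, -0.58 and -0.59 in the pairs and -0.59 overall (SE 0.14, limma adjusted p 0.942, and 0.124 with the block). Phf2, a histone demethylase, was as even, at 1.51, 1.63 and 1.60 against 0.59, 0.80 and 0.70 (-0.88, SE 0.22). Cnbd2, a cyclic nucleotide-binding domain gene, ran 2.23, 2.05 and 1.82 against 1.10, 1.23 and 0.92 (-0.95, SE 0.22). Cd59a, an inhibitor of complement lysis, ran 4.21, 3.45 and 3.76 against 3.24, 2.84 and 2.91 (-0.81, SE 0.22, limma adjusted p 0.0979 with the block). None of these 4 genes overlapped between groups. Col18a1, a basement membrane collagen, stood at -0.98 (SE 0.24), Cpe, carboxypeptidase E, at -0.92 (SE 0.24), Panx1, a channel that releases ATP, at -1.01 (SE 0.31), and H1f0, a linker histone, at -0.53 (SE 0.13).

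Markers of other marrow cells had summed levels far under those of macrophage genes, and many were not listed in the table. Osteoclast markers (9 of 12 listed) summed to 288 to 459 CPM in WT and 373 to 583 in D316Y, monocyte and progenitor markers (8 of 14) to 411 to 474 and 392 to 426, and dendritic cell markers (10 of 14) to 142 to 168 and 153 to 192. The summed level of neutrophil markers was 34.7 to 55.4 CPM in WT and 52.2 to 64.7 in D316Y, with 10 of 20 markers listed and the defining genes Elane, Mpo and Ly6g not listed. S100a8, a calcium-binding protein of neutrophils and monocytes, ran 1.27, 3.42 and 2.72 log2 CPM in WT and 2.95, 3.83 and 4.16 in D316Y, overlapping (1.18, SE 0.53). Of 8 tested neutrophil markers 6 were higher and 2 lower, with pair medians of 0.22, -0.29 and 1.33. Lymphocyte markers reached 327 to 403 CPM in WT and 275 to 337 in D316Y, from 3 of 17 markers, with Cd3e not listed. Kit, a receptor of progenitors and mast cells, ran 0.77, 0.17 and 0.67 against -0.40, -0.35 and -1.32 (-1.23, SE 0.39), and Ccr7, a receptor of migrating dendritic cells, -0.03, 0.00 and -0.34 against 0.89, 0.71 and 0.79 (0.92, SE 0.28). Neither overlapped between groups, and neither passed in limma. Their lists held both directions: 2 of 8 tested monocyte and progenitor markers were higher and 6 lower, and 5 of 8 dendritic cell markers were higher and 3 lower. The Y-linked genes Uty, Ddx3y, Kdm5d and Eif2s3y were above 1.8 log2 CPM in all 6 libraries, and all 4 had positive differences, from 0.26 for Ddx3y to 0.70 for Eif2s3y. The part of any of these cells in the differences above was not tested.

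Set beside the LPS libraries, Rab4a, Ide, Dhcr7, G530011O06Rik and Ifi208 kept their direction after stimulation. In 1 fit of all 12 libraries, the D316Y minus WT difference after LPS was -2.79 for Rab4a (SE 0.27), -1.62 for Ide (SE 0.21), 1.25 for Dhcr7 (SE 0.23), -2.44 for G530011O06Rik (SE 0.35) and 4.80 for Ifi208 (SE 0.41). After LPS Ifi208 reached 0.23, 0.74 and 1.02 log2 CPM in the WT libraries and 5.26, 5.47 and 5.66 in the D316Y libraries, again without overlap. Zbtb20 and Ubn2 stood at 0.49 (SE 0.43) and 0.48 (SE 0.45). The change of each difference from rest to LPS was less than 2 times its error for Rab4a (-0.58, SE 0.38), Ide (-0.03, SE 0.30), Dhcr7 (-0.17, SE 0.33), G530011O06Rik (0.06, SE 0.50) and Ifi208 (1.14, SE 0.58). The limma adjusted p of that change was 0.999 for each of the 5.

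Interferon-stimulated and integrated stress response genes, lower at rest, had medians near 0 after LPS, as did some single genes. Ifit2 stood at -0.95 at rest and 0.21 after LPS, Chac1 at -0.97 and 0.13, Phf2 at -0.88 and -0.08, and P2ry2 at -0.59 and 0.11. The median of the interferon-stimulated genes was 0.08 after LPS, and that of the integrated stress response -0.08. Endoplasmic reticulum stress genes stayed lower after LPS in 20 of 21 (median -0.20), and tRNA synthetases in 20 of 21 (median -0.09). The change from rest to LPS was tested by an interaction term over 11918 genes. In limma it called 0 genes at adjusted p under 0.05 and 251 (2.11%) at an unadjusted p under 0.05. Among the latter were 8 of 46 interferon-stimulated genes and 6 of 13 GBP and IRG genes. For P2ry2 the change from rest to LPS was 0.70 (SE 0.20, unadjusted p 0.00349 and adjusted p 0.999 in limma).

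**Figure D5:**
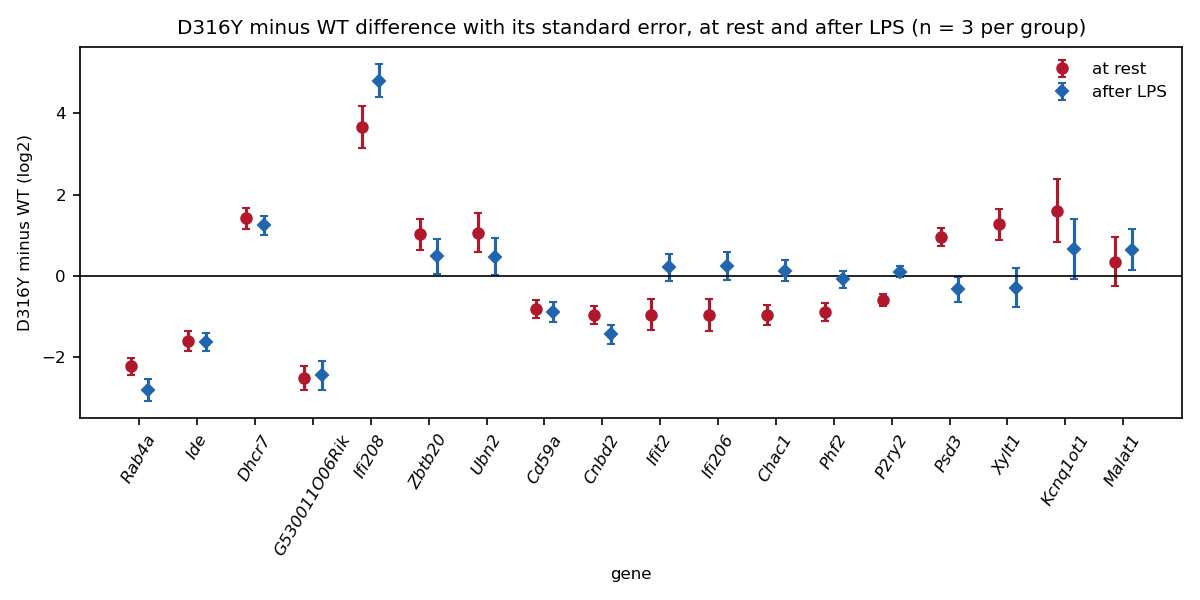
D316Y minus WT difference (log2) of 18 genes at rest (circles) and after LPS (diamonds), with standard errors (n = 3 libraries per group, limma). Rab4a, Ide, G530011O06Rik, Dhcr7 and Ifi208 lie on the same side of 0 in both conditions, whereas Ifit2, Ifi206, Chac1, Phf2 and P2ry2 lie under 0 at rest and near 0 after LPS.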

How the data were processed

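RNA from 12 libraries of mouse macrophages was sequenced, and 6 unstimulated libraries (3 WT, 3 D316Y) were compared. The authors deposited log2 CPM values per gene, per the file headers. The submitters' processing notes list STAR 2.5.1a, featureCounts 1.4.6-p5 from Subread, limma, edgeR and bcl2fastq, without tying them to steps. Genome build and annotation: not given in the sources used here. Of 12493 entries, 52 repeated gene identifiers were dropped, leaving 12441 genes, and 15 symbols turned into dates were restored. Whole reads, within 0.01, came back for 100% of the values below 200 reads in each library once a prior of 0.5 reads and the library's effective size were undone. The deposited fold changes and p-values were not used.

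Genes whose mean reached 0 log2 CPM in one group or both (11525, with 916 left out) were fitted with limma 3.58.1 in R 4.3.3 (eBayes with trend and robust, two-sided, Benjamini-Hochberg over all genes tested, threshold 0.05). Standard errors are those of the fit, and differences are of log2 CPM. A second fit added the replicate number as a block, since deviations from the group mean correlated at 0.660, 0.636 and 0.203 between same-numbered WT and D316Y libraries. Values after LPS and the interaction come from 1 fit of 4 groups. The scripts were tested on simulated data. Alternatives varied the block, the filter, scaling, moderation, the prior reads (2 in place of 0.5), voom on recovered reads, a mitochondrial covariate and the libraries used. Positions come from GENCODE M21 and upstream windows from RefSeq, both on GRCm38, and motifs were searched on both strands within 250 bases. Python 3.11.15 with pandas 2.3.3 and matplotlib 3.10.9 did the rest.

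The genes named are Coq6, those past the threshold in either fit, in each direction the 12 with the smallest unadjusted p and the 10 largest differences among genes of at least 1 log2 CPM whose libraries do not overlap and whose names are not predicted, clone or pseudogene names, up to 4 with the smallest p of each of 59 lists, and in each direction the 10 genes of at least 3 log2 CPM that deviate most in replicate 1. A selection of these is printed, with Coq, Rab, Ifi200, M16 and late sterol genes, neighbours and cell type markers asked for by role. Asns, Atf4, Ddit3, Gbp2, Gbp3, Herc1, Ifit1, Ifit2, Irgm1, Malat1, Mid1 and Rsad2 fall outside this rule and were chosen after their values were seen. The comparison, the 59 lists (1181 distinct genes) and the genes named were chosen with earlier results of these data known.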

Additional observations from a re-analysis of the deposited data

How the results depend on the processing

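Without a block, 1 gene passed adjusted p 0.05 in limma, and the count ran from 0 to 1 over fits that leave out 1 library each. It was 0 without a filter (377 genes at an unadjusted p under 0.05), 0 with plain eBayes (378) and 0 with median scaling (330). It was 4 with all 12 libraries in 1 fit, 5 with voom and library weights, 7 with the mitochondrial share as covariate and 10 without both replicate 1 libraries. The replicate block gave 6, and with 1 pair left out the block gave from 8 to 1208, with 174 without pair 1 (134 higher, 40 lower), 8 without pair 2 and 1208 without pair 3 (475 higher, 733 lower). These fits rest on 2 pairs. In alternatives chosen after seeing the data, the replicate block gave 16 with median scaling (12 higher, 4 lower) and 5 with voom. Of the 6 genes called with the block, 4 were shared with the covariate fit, 4 with the fit without both replicate 1 libraries, and 6, 4 and 6 with the blocked fits without pair 1, 2 and 3. Over the 22 alternatives Rab4a passed in 14, G530011O06Rik in 11, Ide in 10, Dhcr7 in 9, Ifi208 in 6, Zbtb20 in 5, Ubn2 in 4 and Coq6 in 0. The causes of these shifts were not tested. Median scaling shifted all genes by 0.04.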
